A study of Homo sapiens with 6 samples.

Results

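Mitochondrial fission and fusion genes set whether the mitochondria of a cell are kept as separate fragments or joined into a network. The genes described here are MFF, DNM1L, FIS1, MIEF1, MIEF2, GDAP1, MFN1, MFN2, OPA1 and OMA1, which were taken by name. They are 10 of the 27968 genes in the deposited gene tables, and their transcripts are 43 of the 70006 isoforms in the isoform tables. The study used H23, a human lung adenocarcinoma cell line, transfected by means of RNAiMAX reagent. One group received a control siRNA and the other an siRNA specific for HOTAIR-N, which is a transcript form of HOTAIR, a long non-coding RNA. Each siRNA was given in 3 independent transfections of this single line, and total RNA was taken 48 hours later for stranded, ribosome-depleted RNA sequencing. All libraries therefore share the line, the reagent and the time, and no untransfected cells were analysed here.

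The library totals ranged from 32715361 to 36578681 expected counts, of which the 10 genes held 0.0950% to 0.1005%. HOTAIR had 169, 148 and 202 counts with control siRNA and 88, 74 and 82 counts with HOTAIR-N siRNA, or 48.7% of the control level (log2 fold change -1.04, SE 0.14, edgeR adjusted p = 1.32e-05). These counts are for the HOTAIR gene as a whole, and the level of the HOTAIR-N form is not given here. Of 6 epithelial markers, 5 were at 1 TPM or more in every library, and the sixth, CLDN7, stayed at or below 0.09 TPM. TPM is a level adjusted for transcript length and library size. The lung lineage markers were largely absent, with NKX2-1 at 1.06 to 3.02 TPM and SFTPA1 and SCGB1A1 at 0. Summed fibroblast markers ranged from 5.22 to 5.92 TPM with control siRNA and from 14.7 to 15.2 TPM with HOTAIR-N siRNA, through COL1A1 and LUM, while DCN was at or below 0.02 TPM. The sums for the other lists, control siRNA first, were 3714 to 4422 and 2919 to 3289 TPM (epithelial), 1.5 to 1.97 and 2.67 to 3.63 (lung lineage), 7.25 to 9.36 and 8.10 to 9.34 (leukocyte, nearly all CD68), and 0.21 to 0.31 and 0.35 to 0.43 (endothelial, with none of 3 markers at 1 TPM). Most of the lower epithelial sum lay in KRT18, at a mean of 2592 TPM with control siRNA and 1535 TPM with HOTAIR-N siRNA, while CDH1 was at 12.01 and 24.5 TPM, KRT8 at 1505 and 1570 TPM and EPCAM at 6.88 and 7.72 TPM. The part of these markers in the results below was not tested.

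Fission is carried out by DNM1L, a dynamin-related GTPase that assembles from the cytosol into rings around the mitochondrion. MFF, MIEF1, MIEF2 and FIS1 sit in the outer membrane, where the first 3 are known as its receptors. Fusion of the outer membrane is carried out by MFN1 and MFN2, and fusion of the inner membrane by OPA1, which the stress-activated protease OMA1 cleaves. In tumour cells with an active RAS pathway, among them lung adenocarcinoma, DNM1L is known as a target of ERK phosphorylation. MFF, DNM1L and OPA1 are alternatively spliced, and their variants differ in short coding exons.

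Of the variable exons used here for these genes, those whose share of transcripts shifted most between the groups are shown first. The sequences and coordinates are from GENCODE release 29 on GRCh38, another build than the hg19 of the deposited tables. In the lines below the exon is in capitals, with 10 bases of the neighbouring exons of 1 annotated transcript on either side in lower case, as read 5′ to 3′ on the plus strand. All are coding exons, and the length of each is a multiple of 3, so that each keeps the reading frame.
MFF 75-nt exon, chr2:227342745-227342819: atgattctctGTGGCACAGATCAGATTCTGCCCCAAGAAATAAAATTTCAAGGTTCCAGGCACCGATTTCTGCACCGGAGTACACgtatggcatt
MFF 159-nt exon, chr2:227347226-227347384: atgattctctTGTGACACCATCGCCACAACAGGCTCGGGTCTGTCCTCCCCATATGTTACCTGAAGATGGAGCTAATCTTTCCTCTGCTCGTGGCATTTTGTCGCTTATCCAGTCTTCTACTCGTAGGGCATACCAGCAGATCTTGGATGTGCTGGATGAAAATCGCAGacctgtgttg
MFF 60-nt exon, chr2:227352514-227352573: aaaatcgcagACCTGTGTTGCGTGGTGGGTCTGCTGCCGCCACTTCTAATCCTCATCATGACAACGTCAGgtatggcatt
DNM1L 78-nt exon, chr12:32737865-32737942: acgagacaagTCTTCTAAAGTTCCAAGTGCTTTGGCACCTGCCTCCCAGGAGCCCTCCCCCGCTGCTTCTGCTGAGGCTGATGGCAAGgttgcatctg
DNM1L 33-nt exon, chr12:32738264-32738296: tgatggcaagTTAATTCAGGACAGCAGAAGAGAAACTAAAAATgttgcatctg
OPA1 111-nt exon, chr3:193626092-193626202: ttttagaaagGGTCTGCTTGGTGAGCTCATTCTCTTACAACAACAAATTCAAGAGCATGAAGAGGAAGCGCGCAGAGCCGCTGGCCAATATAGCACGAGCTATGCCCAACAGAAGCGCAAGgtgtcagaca

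An MFF transcript that skips all 3 exons joins the flanking exons directly. This junction is shown because, among MFF isoforms, the one without them had the largest drop in its share of the gene with HOTAIR-N siRNA. The last 20 bases of the upstream exon are in lower case and the first 20 of the downstream exon in capitals.
MFF junction: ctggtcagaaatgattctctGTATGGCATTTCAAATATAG

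The deposited tables name isoforms but give no exons. In each gene, 3 variable exons and the isoform without them were therefore first chosen to match the exons of paired GENCODE transcripts as often as possible. A tie went to the choice that assigned the most isoforms, and sums with any other variable exon were not considered. The exon content of an isoform was then assigned only where its length fitted. Its deposited length had to equal that of the isoform without variable exons plus exactly 1 sum of these exon lengths. For MFF the isoform without them was 1805 nt, and 4 of 10 isoforms were assigned. They made up 63.1% to 65% of MFF with control siRNA and 60.4% to 64.4% with HOTAIR-N siRNA. For DNM1L 7 of 8 isoforms were assigned, with 99.85% or more of the gene in every library, and for OPA1 8 of 10. These held 91.4% to 96.0% of OPA1 with control siRNA and 85.1% to 90.2% with HOTAIR-N siRNA, so the unassigned part of OPA1 was larger in every HOTAIR-N library. Where GENCODE pairs the RefSeq name with a transcript, the content was the same for 4 of 4 MFF isoforms, 6 of 6 DNM1L isoforms and 7 of 8 OPA1 isoforms. Because the exons were chosen for this agreement, it is no independent check of the assignment.

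The genes were selected on the gene totals and isoform percents of this same comparison, so their differences are given as a description and stand as no independent evidence. All 10 genes passed the filter on low counts. In the fit over all 15072 genes, 2 members rose with HOTAIR-N siRNA (GDAP1 and FIS1), 2 fell (MIEF1 and OPA1) and 6 did not pass. Of all genes tested 57.5% passed, 28.7% upwards and 28.8% downwards, so that 4 of 10 is no more than the background. The groups did not overlap in CPM (counts scaled to library size) for 5 of the 10 members and for 62.9% of all genes. The median log2 fold change was 0.02 over the members and 0.01 over all genes. In bulk RNA, fewer cells with a transcript and less of it per cell cannot be told apart.

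**Figure D1:**
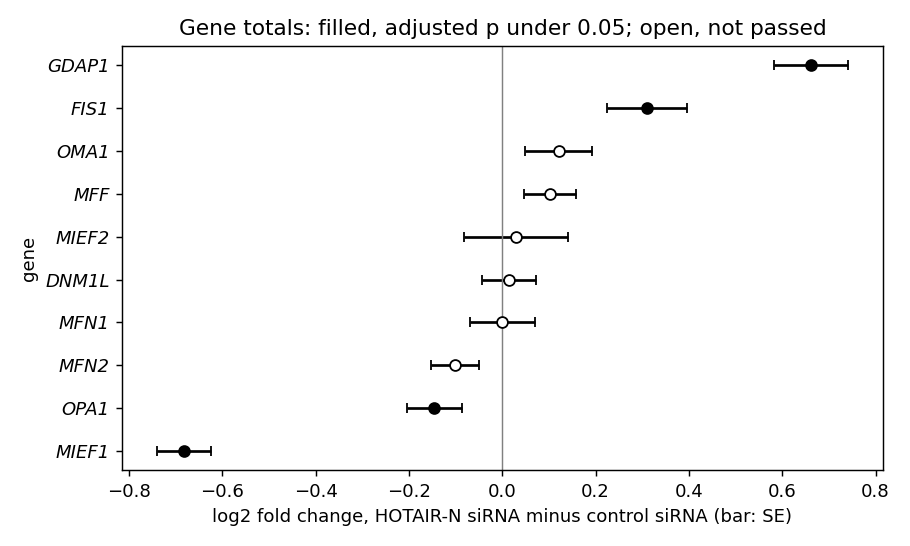
Log2 fold change of each of the 10 genes, HOTAIR-N siRNA minus control siRNA, on the horizontal axis, with bars for the standard error (3 libraries per group). The values run from -0.68 for MIEF1 to 0.66 for GDAP1, and the other 8 genes lie between -0.15 and 0.31.

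With control siRNA the genes covered a wide range of TPM. FIS1 was highest at 140.3 ± 15.1 TPM (SD, n = 3), followed by DNM1L at 104 ± 9.65, MFF at 103 ± 5.45, MFN2 at 86.5 ± 3.04, OPA1 at 60.4 ± 5.72 and MFN1 at 53.0 ± 5.33. Lower levels were found for MIEF1 at 38.2 ± 1.96, OMA1 at 23.5 ± 2.34, GDAP1 at 6.31 ± 0.50 and MIEF2 at 4.74 ± 0.55 TPM. Of neighbours in this order, DNM1L and MFF overlapped in range, as did OPA1 and MFN1, and the others did not. FIS1 stood at the 92.3 percentile of tested genes and MIEF2 at the 32.6 percentile. MIEF1 and MIEF2, the paired receptors known as MiD proteins, thus differed in level, with MIEF1 at 36.0 to 39.8 TPM and MIEF2 at 4.27 to 5.34 TPM in the control libraries.

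**Figure D2:**
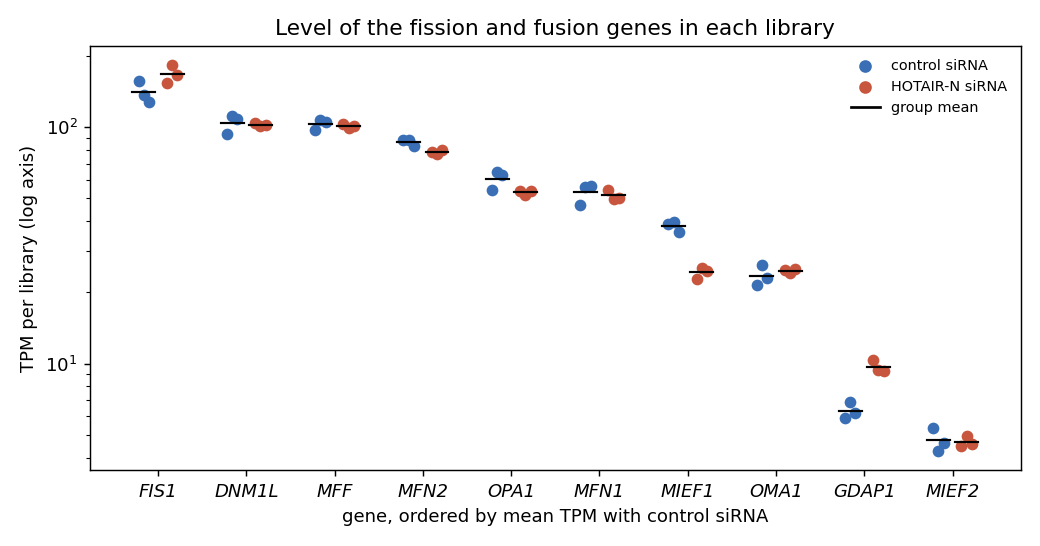
TPM of each gene in each of the 6 libraries (points, log axis) with the mean of each siRNA group (lines), ordered by the control mean. FIS1, DNM1L and MFF are the highest, GDAP1 and MIEF2 the lowest, and the groups stand well apart for MIEF1 and GDAP1. Those of MFN2 and OPA1 do not overlap either, by narrower gaps.

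DNM1L, the fission GTPase, was at 93.4, 111 and 108 TPM with control siRNA and at 104, 101 and 102 TPM with HOTAIR-N siRNA. The HOTAIR-N libraries lay inside the control range, and control replicate 1 was the lowest library. DNM1L did not pass, with a log2 fold change of 0.01 (SE 0.06, edgeR adjusted p = 0.853). Its composition differed more than its total. NM_012063, the isoform with the 33-nt exon and without the 78-nt exon, made up 56.8%, 56.3% and 53.0% of DNM1L with control siRNA and 45.4%, 38.6% and 34.7% with HOTAIR-N siRNA. This percent of the gene's transcripts is the deposited IsoPct value. NM_012063 was the leading isoform in every library, and the groups did not overlap. NM_005690, which has neither exon, was at 15.4%, 14.3% and 18.6% with control siRNA and at 20.0%, 24.5% and 24.35% with HOTAIR-N siRNA. NM_001278463, with the 78-nt exon alone, was at 9.48%, 9.59% and 11.2% against 15.2%, 14.5% and 16.4%. NM_012062, with both exons, was at 17.5%, 18.5% and 16.5% against 18.6%, 20.9% and 22.95%. All 3 were higher in each HOTAIR-N library than in any control library. The other 4 DNM1L isoforms were each below 1% in every library.

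By the isoform counts, NM_001278463 rose (log2 fold change 0.63, SE 0.12, edgeR adjusted p = 0.0206), and the other DNM1L isoforms tested did not pass. The adjusted p was 0.0560 for NM_012063 (log2 fold change -0.45) and 0.0513 for NM_005690 (0.53), each by edgeR. The first was called without HOTAIR-N replicate 1 (0.0171) and the second without control replicate 3 (0.0193), and both with the stricter filter, DESeq2 and limma-voom. The call of NM_001278463 was lost with the replicate block (adjusted p = 0.0648) and without control replicate 2 (0.0809) or HOTAIR-N replicate 1, 2 or 3 (0.0778, 0.0540 and 0.0830). Over the assigned isoforms, transcripts with the 78-nt exon were 28.2% ± 0.74 of DNM1L with control siRNA and 37% ± 3.07 with HOTAIR-N siRNA (SD, n = 3). For the 33-nt exon these shares were 73.3% ± 3.04 and 60.8% ± 3.12. Both exons encode part of the variable domain, a region between the GTPase-bearing and assembly parts of the protein. A 39-nt exon, which encodes an insert in the GTPase domain, was in 0.86% ± 0.33 and 1.32% ± 0.48 of the transcripts, with overlapping groups.

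MFF, the main outer membrane receptor of DNM1L, had 2988, 3123 and 3354 counts with control siRNA and 3234, 3197 and 3412 with HOTAIR-N siRNA. On the TPM scale the HOTAIR-N libraries, at 103, 99.0 and 101, lay inside the control values of 96.7, 107 and 106. In CPM the groups were just apart, at 86.4 to 92.7 and 94.0 to 98.5. Its log2 fold change of 0.10 (SE 0.06) did not pass (edgeR adjusted p = 0.128).

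The isoforms of MFF differed far more than its total. NM_001277062, which has the 159-nt and 60-nt exons, was at 20.4%, 17.2% and 19.5% of MFF with control siRNA and at 54.3%, 55.1% and 55.4% with HOTAIR-N siRNA. NM_001277065, which has none of the 3 exons, was at 28.0%, 31.4% and 29.3% with control siRNA and at 5.09%, 0% and 0.40% with HOTAIR-N siRNA. It was the leading isoform in each control library, and NM_001277062 was the leading isoform in each HOTAIR-N library. Both gaps between the groups were several times the spread within them.

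NM_001277063, with the 75-nt exon alone, was at 8.19%, 7.85% and 7.96% with control siRNA and 3.52%, 3.03% and 2.59% with HOTAIR-N siRNA. NM_001277064, with the 60-nt exon alone, was at 8.38%, 6.62% and 6.78% against 1.47%, 2.30% and 2.01%. For these too no library of one group reached the other. Isoforms without an assigned exon content followed no single direction. NM_020194 was at 12.5%, 10.0% and 10.1% with control siRNA and 19.8%, 16.5% and 17.0% with HOTAIR-N siRNA. NR_102266, a transcript that RefSeq lists as non-coding, was at 8.97%, 7.53% and 8.41% against 3.97%, 4.05% and 1.70%. NM_001277066 overlapped between the groups, at 8.30%, 11.6% and 10.3% against 5.11%, 8.69% and 10.8%. The remaining 3 MFF isoforms were each under 5% in every library, and 1 of them, NM_001277068, was at 0.38% to 0.56% with control siRNA and 2.02% to 2.23% with HOTAIR-N siRNA.

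**Figure D3:**
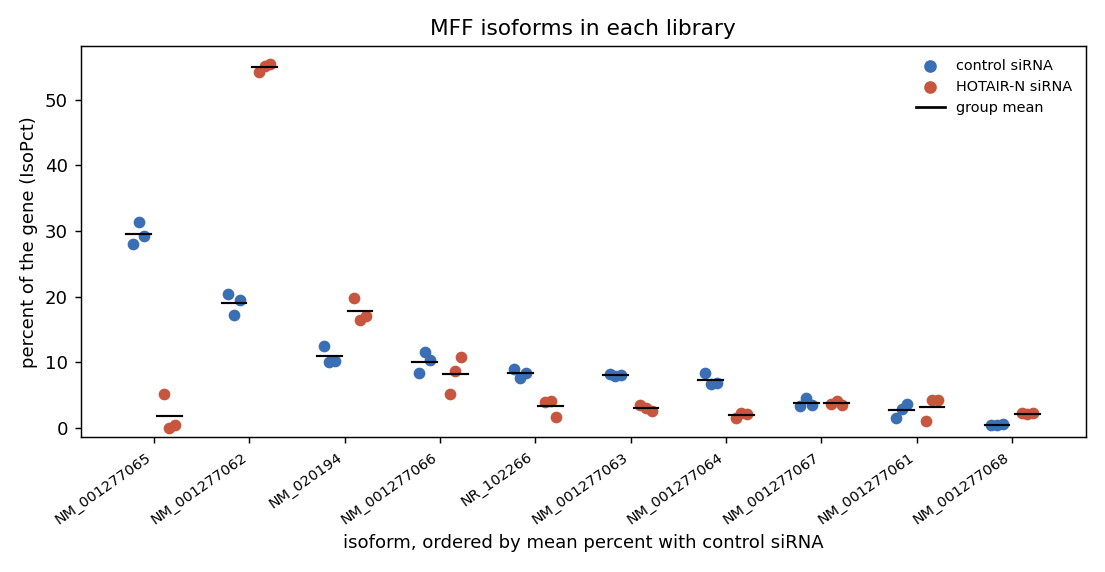
Percent of MFF made up by each of its 10 isoforms (IsoPct, vertical axis) in each library (points) with group means (lines). NM_001277062 lies at 17.2% to 20.4% with control siRNA and 54.3% to 55.4% with HOTAIR-N siRNA, while NM_001277065 lies at 28.0% to 31.4% and 0% to 5.09%.

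In the test of isoform counts, 3 of the 10 MFF isoforms rose, 2 fell and 5 did not pass. NM_001277062 rose by a log2 fold change of 1.56 (SE 0.07, edgeR adjusted p = 0.000311), and NM_020194 and NM_001277068 rose by 0.74 and 2.25. NM_020194 was no longer called without control replicate 2 (adjusted p = 0.0527) or control replicate 3 (0.0570). NM_001277064 fell (log2 fold change -1.88, SE 0.21, edgeR adjusted p = 0.00336), as did NM_001277063 (-1.36, SE 0.17, adjusted p = 0.00479). NM_001277065 had 814, 957 and 954 expected counts with control siRNA and 151, 0 and 12.4 with HOTAIR-N siRNA. Its log2 fold change of -3.96 had an SE of 1.36 and did not pass (edgeR adjusted p = 0.108). Without HOTAIR-N replicate 1, the library at 151, the value was -7.20 with an adjusted p of 0.0157, and with limma-voom on all libraries it was -6.53 (0.0290). NR_102266 did not pass (log2 fold change -1.33, edgeR adjusted p = 0.0570) but was called without HOTAIR-N replicate 3 (-1.02, 0.0318), with the stricter filter (0.0440), with DESeq2 (0.00148) and with limma-voom (0.0246). In the test of its use relative to the rest of the gene, NM_001277065 passed with all libraries (edgeR adjusted p = 3.38e-06), and so did NM_001277062 (0.000590), as 1.73% of all isoforms in that test did. The other MFF isoforms did not pass it, among them NM_001277064 (0.678) and NM_001277063 (0.997). With limma on log ratios NM_001277062 still passed (adjusted p = 0.00328) and NM_001277065 did not (0.212). NM_001277068 (0.00810), NM_001277063 (0.0169) and NM_001277064 (0.0182) passed with limma on log ratios only, so the 2 tests differed on most of these isoforms. That second test recovered 0% of the changes in simulated data but called 445 genes in these data. The simulation therefore cannot decide between the 2 results for NM_001277065, whose change of use stays uncertain.

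Over the 4 assigned isoforms of MFF, the 159-nt exon was in 31.4%, 27.3% and 30.7% of transcripts with control siRNA and in 84.3%, 91.2% and 91.7% with HOTAIR-N siRNA. The 60-nt exon was in 44.3%, 37.8% and 41.4% against 86.6%, 95.0% and 95.1%. The 75-nt exon was lower with HOTAIR-N siRNA, at 4.92% ± 0.60 against 12.5% ± 0.07 (SD, n = 3). These shares leave out the unassigned isoforms of MFF.

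**Figure D4:**
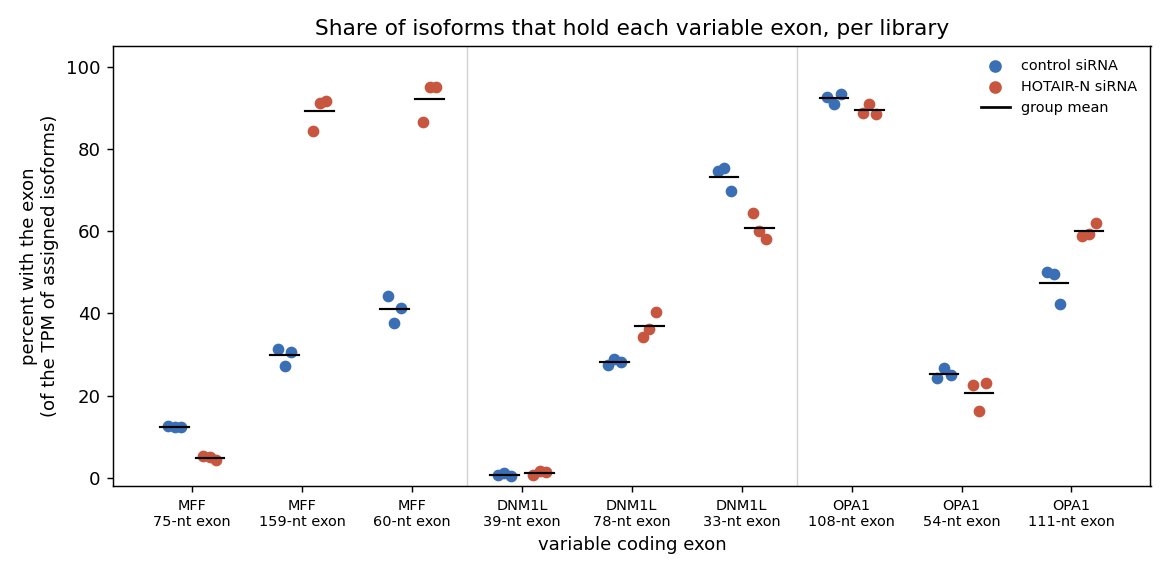
Percent of the TPM of assigned isoforms that hold each variable coding exon (vertical axis), in each library (points) with group means (lines), for MFF, DNM1L and OPA1. The 159-nt exon of MFF lies at 27.3% to 31.4% with control siRNA and 84.3% to 91.7% with HOTAIR-N siRNA, and the shifts of the DNM1L and OPA1 exons are smaller.

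FIS1, a small tail-anchored protein of the outer membrane, rose. Its counts were 1631, 1353 and 1365 with control siRNA and 1548, 1883 and 1807 with HOTAIR-N siRNA. In CPM the values were 47.2, 38.8 and 37.7 against 47.2, 55.4 and 50.7, so the highest control library and the lowest HOTAIR-N library were level. On the TPM scale these 2 libraries overlapped, at 157 and 154. Its log2 fold change was 0.31 (SE 0.09, edgeR adjusted p = 0.00619), with 0.25 to 0.42 in the 13 alternative analyses. FIS1 has a single isoform in the tables, NM_016068, with the same counts. Tested among the isoforms, with the spread estimated over isoforms, these counts did not pass (edgeR adjusted p = 0.106), though they did without control replicate 1 (0.0368) and with DESeq2 (0.0186).

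MIEF1, a receptor that binds DNM1L at the outer membrane, fell to 62.3% of its control level. It had 3672, 3635 and 3603 counts with control siRNA and 2015, 2250 and 2334 with HOTAIR-N siRNA. In TPM it was at 38.8, 39.8 and 36.0 against 22.7, 25.5 and 24.7. Every HOTAIR-N library was below every control library. MIEF1 had a log2 fold change of -0.68 (SE 0.06, edgeR adjusted p = 1.43e-07), the largest in size among the members, and it lay between -0.71 and -0.65 in the 13 alternative analyses. The coding isoform NM_019008 fell (log2 fold change -0.59, SE 0.10, edgeR adjusted p = 0.0130), as did NR_130789, which RefSeq lists as non-coding (-0.90, SE 0.19, adjusted p = 0.0274). With the replicate block neither was called, at adjusted p = 0.0617 and 0.0956, and NR_130789 was also lost without control replicate 1, 2 or 3 (0.0687, 0.0888 and 0.0665) or HOTAIR-N replicate 1 or 2 (0.0674 and 0.0968). NR_130790, the third isoform above 5%, did not pass (0.22, adjusted p = 0.670).

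The composition of MIEF1 varied between libraries of 1 group. NM_019008 was at 53.0%, 50.6% and 55.9% of MIEF1 with control siRNA and 59.1%, 55.9% and 45.6% with HOTAIR-N siRNA. NR_130789 was at 36.3%, 40.8% and 37.5% against 26.4%, 26.5% and 40.1%. HOTAIR-N replicate 3 thus sat apart from the other 2 libraries of its group. NR_130790 was at 10.6%, 8.66% and 6.66% against 14.5%, 17.6% and 13.8%, with no overlap. This difference of 6.65 points was 2.48 points when the percent was computed from expected counts without length adjustment.

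The genes whose pattern over the 6 libraries was most like that of MIEF1 were IBA57, CTBP2 and BAZ2A, among 12259 genes whose mean log2 CPM was 1 or more. Likeness was the root mean square difference of log2 CPM after each gene was centred, and it was 0.019, 0.021 and 0.022. IBA57 is a mitochondrial iron-sulfur cluster assembly factor, CTBP2 a transcriptional corepressor and BAZ2A a subunit of a chromatin remodeller. Their log2 fold changes were -0.69, -0.68 and -0.66, and the choice by likeness over the same 6 libraries fixed them near that of MIEF1.

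MIEF2, the paralogue of MIEF1, was the member with the lowest level. It had 236, 181 and 206 counts with control siRNA and 191, 216 and 210 with HOTAIR-N siRNA, and the groups overlapped. MIEF2 did not pass (log2 fold change 0.03, SE 0.11, edgeR adjusted p = 0.835). Its division between isoforms varied widely within the control group. NM_139162 was at 87.0%, 100% and 60.5% of MIEF2 with control siRNA and 91.1%, 100% and 100% with HOTAIR-N siRNA, and NM_148886 made up the rest. The remaining isoform was listed at 0 in every library.

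GDAP1, an outer membrane protein related to glutathione transferases whose mutations cause Charcot-Marie-Tooth neuropathy, is known to promote fission. It rose to 158% of its control level. The counts were 402, 446 and 434 with control siRNA and 681, 633 and 650 with HOTAIR-N siRNA, and TPM was 5.88, 6.86 and 6.18 against 10.4, 9.40 and 9.27. The groups were well apart. The log2 fold change was 0.66 (SE 0.08, edgeR adjusted p = 4.93e-06), and it ranged from 0.60 to 0.70 over the 13 alternative analyses. Almost all of GDAP1 was the coding isoform NM_018972, at 96.2%, 95.4% and 97.6% with control siRNA and 90.5%, 100% and 96.5% with HOTAIR-N siRNA. This isoform rose as well (log2 fold change 0.66, edgeR adjusted p = 0.00362). GDAP1 overlaps JPH1 on the opposite strand in GENCODE, and with no strand setting known for the counting, reads of the 2 genes may not be separated.

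MFN1, one of the mitofusins that tether and fuse outer membranes, did not pass. Its counts were 2883, 3256 and 3572 with control siRNA and 3220, 3003 and 3174 with HOTAIR-N siRNA, with all HOTAIR-N libraries inside the control range. A log2 fold change of 0.00037 was found (SE 0.07, edgeR adjusted p = 0.997), and its sign depended on the scaling, at -0.0027 with RLE.

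MFN2, the second mitofusin, which also tethers mitochondria to the endoplasmic reticulum, had 7287, 6958 and 7058 counts with control siRNA and 6221, 6264 and 6781 with HOTAIR-N siRNA. In TPM the groups did not overlap, at 88.1, 88.4 and 83.0 against 78.1, 77.0 and 79.9. A log2 fold change of -0.10 (SE 0.05) did not pass (edgeR adjusted p = 0.111). NM_014874 made up 91.5%, 91.1% and 95.5% of MFN2 with control siRNA and 91.3%, 89.9% and 93.5% with HOTAIR-N siRNA, and NM_001127660 the rest. No change of composition was visible beyond the spread.

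OPA1, the dynamin-related GTPase of the inner membrane, was at 54.0, 64.8 and 62.5 TPM with control siRNA and 53.7, 51.4 and 53.7 TPM with HOTAIR-N siRNA. Control replicate 1 was level with the HOTAIR-N libraries, and in CPM, at 179, it lay below HOTAIR-N replicate 1, at 180. By edgeR OPA1 fell (log2 fold change -0.15, SE 0.06, adjusted p = 0.0487), which is close to the threshold of 0.05. It did not pass in 9 of the 13 alternative analyses. Among these were the replicate block (adjusted p = 0.0977) and leaving out control replicate 2 or 3 (0.141 and 0.154) or HOTAIR-N replicate 1, 2 or 3 (0.0509, 0.185 and 0.105).

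The 2 leading OPA1 isoforms differ by the 111-nt exon, which holds the site that the protease YME1L1 cleaves. NM_015560, with the 108-nt exon alone, was at 31.4%, 29.7% and 36.3% of OPA1 with control siRNA and 24.1%, 25.9% and 21.5% with HOTAIR-N siRNA. NM_130836, with the 108-nt and 111-nt exons, was at 34.0%, 29.4% and 26.1% against 32.5%, 39.95% and 37.5%. The first did not overlap between the groups and the second did. NM_130834, with the 108-nt and 54-nt exons, was at 12.2%, 11.4% and 13.3% with control siRNA and 4.39%, 6.63% and 6.53% with HOTAIR-N siRNA. NM_001354664, of unassigned content, was at 4.0%, 7.30% and 7.29% against 13.2%, 10.1% and 8.12%. NM_130837, with all 3 exons, was at 9.51% to 13.2% and 7.70% to 14.6%, and NM_130831, with none, at 3.12% to 5.39% and 3.22% to 6.19%. These last 2 overlapped.

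In the test of isoform counts NM_130834 fell (log2 fold change -1.21, SE 0.17, edgeR adjusted p = 0.00779), as did NM_015560 (-0.58, SE 0.12, adjusted p = 0.0223). The call of NM_015560 was lost with the replicate block (adjusted p = 0.114) and without control replicate 2 (0.0628) or HOTAIR-N replicate 1, 2 or 3 (0.0682, 0.0660 and 0.0826). The 6 other OPA1 isoforms tested did not pass, and 2 were too low to test. Over the assigned isoforms the 111-nt exon was in 50.2%, 49.5% and 42.3% of transcripts with control siRNA and in 58.9%, 59.4% and 62.1% with HOTAIR-N siRNA. The 54-nt exon was in 25.4% ± 1.23 and 20.7% ± 3.81 (SD, n = 3), and the 108-nt exon in 92.3% ± 1.17 and 89.4% ± 1.41, where the groups overlapped. OPA1 overlaps OPA1-AS1 on the opposite strand, and the same limit holds for its reads.

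**Figure D5:**
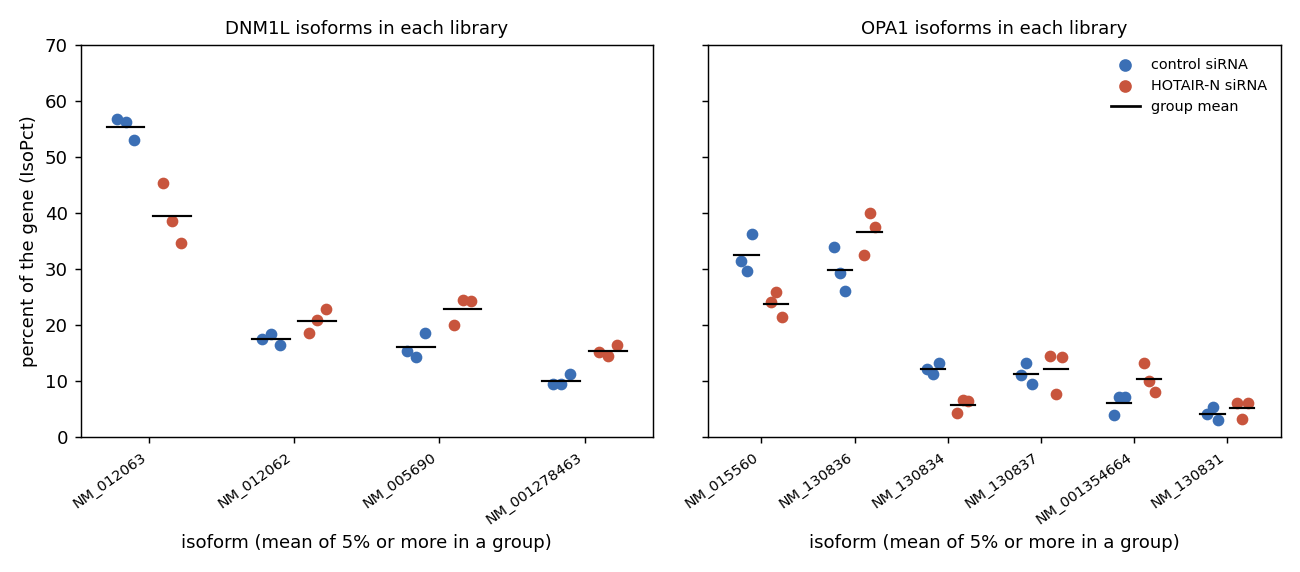
Percent of DNM1L (left) and of OPA1 (right) made up by each isoform with a mean of 5% or more in a group (IsoPct, vertical axis), in each library (points) with group means (lines). NM_012063 of DNM1L lies at 53.0% to 56.8% with control siRNA and 34.7% to 45.4% with HOTAIR-N siRNA, and NM_130834 of OPA1 at 11.4% to 13.3% and 4.39% to 6.63%.

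OMA1, the protease that cleaves OPA1 under stress, had 696, 804 and 766 counts with control siRNA and 777, 771 and 841 with HOTAIR-N siRNA, with overlapping groups. OMA1, at a log2 fold change of 0.12 (SE 0.07), did not pass (edgeR adjusted p = 0.168). It has 1 isoform in the tables, as do MFN1 and FIS1. OMA1 overlaps DAB1 on the same strand. In GENCODE, MFF and DNM1L also overlap AC097662.1 and AC084824.4 on the opposite strand, and MIEF1 overlaps AL022312.1 on the same strand. These overlapping genes of MFF, DNM1L and MIEF1 are not in the deposited gene tables, so their reads may be counted with the members.

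Of the 43 isoforms, 37 passed the filter on low counts and 3 were listed at 0 in every library. Of the 37, 5 rose, 6 fell and 26 did not pass, beside 19.5% of all 32627 isoforms tested (9.39% upwards and 10.1% downwards). In the 7 members with several isoforms, 17 of 34 tested isoforms had IsoPct values that did not overlap between the groups, beside 23.7% of all such isoforms. Of the 17, 7 were of MFF, 5 of OPA1 and 4 of DNM1L. The percents of 1 gene add up to the whole, so its isoforms are not separate units. The members were also selected on these percents, so the 2 shares cannot be compared as evidence. With 3 libraries against 3 an exact two-sided permutation test of 1 isoform cannot go below p = 0.1, so no p is given for IsoPct. In edgeR's diffSpliceDGE test, which asks whether the isoforms of a gene change relative to each other, 2 of the 7 members passed, MFF (Simes adjusted p = 1.08e-05) and DNM1L (0.00773), and 4.13% of 7523 genes passed in all. OPA1 did not pass (adjusted p = 0.216), and neither did MIEF1, MIEF2, MFN2 and GDAP1. MFF ranked 14 of 7523 by this p and DNM1L 163. The MFF call held in all 12 alternatives run for it, with adjusted p up to 0.00804. For DNM1L it was lost in 5 of 12, with no filter (adjusted p = 0.0930), with limma on log ratios (0.148), without control replicate 2 (0.0638) and without HOTAIR-N replicate 2 (0.115) or 3 (0.323). In simulated data with 200 changed genes, 60.7% to 82.8% of the diffSpliceDGE calls were unchanged genes. Limma on log ratios made 0 calls there. In these data the 2 tests called 311 and 445 genes, so the simulated shares cannot be carried over, and the calls remain uncertain. The largest IsoPct shift of MFF, 35.9 points, ranked 244 of 9107 genes with several isoforms, and 6.81% of these genes shifted by 25 points or more. The shifts were 15.8 points for DNM1L, 14.6 for MIEF2, 8.64 for OPA1 and 7.18 for MIEF1. That of MIEF2 rested on single control libraries, at 3.56 points without control replicate 3 and 23.3 without control replicate 2, and that of MIEF1 was 11.7 without HOTAIR-N replicate 3.

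Lists of related genes place the members among their partners, and their counts are read against the 57.5% of all genes that passed. Over the lists, 84 of 87 genes were tested, of which 23 rose, 22 fell and 39 did not pass, so that 53.6% passed. The median log2 fold change was 0.04. Among 25 tested regulators of fission and fusion, 5 rose and 10 fell (median -0.13). MIGA1, an outer membrane protein that promotes fusion, rose from 23.7 ± 2.13 to 47.5 ± 1.96 CPM (SD, n = 3), a log2 fold change of 1.00. The fission regulator MTFR2 (-0.96), the mitochondrial phosphatase PGAM5 (-0.61) and RALA, a small GTPase known to bring DNM1L to mitochondria in mitosis (-0.67), fell.

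Among 12 inner membrane and matrix proteases and their kin, 2 rose and 3 fell (median -0.03). The inner membrane peptidase subunits IMMP1L (-1.19) and IMMP2L (-1.12) fell, as did the matrix protease LONP1 (-0.52), and the intermembrane space protease HTRA2 rose (0.52). YME1L1, named after its value was seen because it cleaves OPA1, rose from 213 ± 9.18 to 270 ± 7.08 CPM (log2 fold change 0.35, edgeR adjusted p = 5.57e-05). Of 12 genes of the MICOS complex, which shapes cristae, and its partners, 3 rose and 2 fell (median 0.06), with CHCHD6 at -0.95, CHCHD3 at -0.22, CHCHD10 at 0.44 and C19orf70 at 0.29.

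Of 9 genes that move mitochondria along the cytoskeleton, 4 rose and 3 fell (median 0.15). ARMCX3 (0.88), ARMCX1 (0.64) and SYBU (0.67), linked to transport in axons, rose, and the actin motor MYO19 (-0.40) fell. Of 14 tested genes of mitophagy, the removal of mitochondria by autophagy, 6 rose and 1 fell (median 0.14). The kinase TBK1 fell (-0.73), while its partner OPTN (0.47), the kinase ULK1 (0.58) and the autophagy receptor TAX1BP1 (0.36) rose. Of 13 tested genes of mitochondrial biogenesis and DNA maintenance, 3 rose and 3 fell (median 0.08). The transcription factors NRF1 (-0.65) and GABPA (-0.36) fell, and the mitochondrial DNA-binding protein SSBP1 (0.30) and the DNA polymerase POLG (0.20) rose. No list moved in 1 direction only.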

How the data were processed

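RNA sequencing of 6 libraries, 3 per siRNA, was used. Per the submitters' processing notes, reads were processed with STAR 2.6.0c and RSEM 1.3.0 on hg19. Neither the annotation release nor the strand setting is given in the sources used here. The authors deposited, for each library, expected counts per gene and isoform, in which RSEM divides shared reads, with TPM and FPKM, transcript lengths and, per isoform, its percent of the gene (IsoPct). How uncertain each division was is not stated in the deposited columns, so isoform values carry an error that the replicates show only in part.

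Expected counts were rounded and tested in R 4.3.3 with edgeR 4.0.16 (filterByExpr, TMM, robust quasi-likelihood), over all genes or isoforms, with Benjamini-Hochberg adjustment and a threshold of 0.05. Isoform use was tested with diffSpliceDGE and Simes p-values. In simulated data with changes of 1.5 to 3 fold, this last test recovered 2.5% to 11% of the changed genes. Of its 24 to 56 calls there, 60.7% to 82.8% were unchanged genes. That share depends on the 200 planted changes and cannot be carried over to the 311 calls here, which remain uncertain. Alternatives were RLE and upper-quartile scaling, no filter, a filter of 1 CPM in 3 libraries, a replicate block, each library left out, DESeq2 1.42.0, limma-voom (limma 3.58.1), FPKM levels and isoform percents from counts. Isoform use by limma on log2 ratios was added after seeing the data. In the same simulations it made 0 calls, while it called 445 genes in these data. The simulations thus do not show how it behaves here, and calls lost with it stay uncertain. The members and lists were chosen with earlier results of these data known. All members were named. Isoforms of 5% or more in a group, the 4 list genes with the smallest p per list and the 3 genes most like the member with the largest change were named by rule, and other names were chosen after their values were seen.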

Additional observations from a re-analysis of the deposited data

How the results depend on the processing

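The number of genes that differed was 8672 and ranged from 7503 to 9234 when 1 library was left out. The number of isoforms that differed was 6362. It was 2012 with the replicate block, 10043 with DESeq2 and 3551 to 5647 with 1 library left out. Genes with changed isoform use numbered 311, against 202 with no filter, 141 with the replicate block, 186 to 251 with 1 library left out and 445 with limma on log ratios, of which 236 were among the 311. Overlaps between neighbours in the order of control levels numbered 2, and 0 to 2 with 1 control library left out. The calls of FIS1, MIEF1 and GDAP1 held in all 13 alternatives. Directions reversed only for values that had not passed. MFN1 was at -0.0027 with RLE and -0.0026 with DESeq2. With 1 library left out the log2 fold changes ranged from -0.060 to 0.054 for MFN1, -0.039 to 0.047 for DNM1L, -0.055 to 0.15 for MIEF2, -0.066 to 0.056 for NM_033540 (MFN1), -0.20 to 0.23 for NM_130837 (OPA1), -0.17 to 0.27 for NM_001127660 (MFN2) and -0.021 to 0.42 for NM_130831 (OPA1). The deviations of same-numbered libraries from their group means correlated at -0.12, 0.02 and -0.04, and those of differently numbered libraries at -0.14 to 0.17. With 3 libraries per group, these values cannot decide whether the replicate numbers pair the libraries. The cause of these shifts was not tested. MIEF2, at 181 to 236 counts per library, was the member with the least depth.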
